A study of Mus musculus with 116 samples.

Results

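The segments described here are 7 segments of the Igkv9, Igkv11 and Igkv17 families at the distal end of the mouse immunoglobulin kappa (Igk) locus, far from the J segments. They are Igkv9-129, Igkv17-127, Igkv11-125, Igkv9-124, Igkv9-123, Igkv17-121 and Igkv9-120. These are 7 of 162 RefSeq Igkv segments on chromosome 6, and they were picked because several of them took a larger share of joins in cells without Ku70. RefSeq lists other segments of the same families that are not among the 7. A row of a junction list, which is 1 read across a join of the Jk1 coding end to another sequence, was counted for a segment when the joined position lay within 100 bp of it. By this rule 50422 of 1374899 rows in 42 libraries belonged to the 7 segments. Near this limit rows were few, with 29 between 80 and 100 bp from a segment and 21 between 100 and 120 bp. A limit of 20 bp changed several values of usage, which are given beside the results.

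All libraries came from v-Abl pro-B cells, which are immature mouse B-lineage cells transformed with the v-Abl oncogene, and every group carried an Emu-Bcl2 transgene. Arrest in G1 was imposed with STI-571, a kinase inhibitor, at 3 µM for 96 h, and no nuclease was added, so that the breaks at Jk1 were made by the RAG recombinase of the cells. The groups were Emu-Bcl2 alone (WT, clones A and B), Ku70-/- (A1, B1), Lig4-/- (A1 in 2 sets, B1, C), Lig4-/- +Lig4 (A1, C), Lig4-/-Ku70-/- (A1_1, C1) and Lig4-/-Ku70-/- +Ku70 (A1_1, C1). Each of these 14 groups had 3 libraries and was 1 clone, and clones that share a letter are called a lineage here; how the clones were derived is not given in the sources used here. Nothing in the labels says whether the 3 libraries of a group were separate cultures, so the errors and p-values measure the spread between libraries, which may be technical.

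Depth set what could be described. WT libraries held 47130 to 53074 rows in clone A and 291174 to 305846 in clone B, and Ku70-/- libraries 3075 to 6383 in A1 and 50218 to 60811 in B1. Lig4-/- +Lig4 libraries held 10577 to 13708 rows in A1 and 20882 to 35059 in C, and Lig4-/-Ku70-/- libraries 1867 to 4188 in A1_1 and 4457 to 7225 in C1. These 8 groups are compared below. The 12 Lig4-/- libraries held 490 rows in all, and they and the Lig4-/-Ku70-/- +Ku70 libraries are described by counts only. Reads carry no molecular identifiers, so identical rows can be recurrent joins or PCR copies, and intervals cover counting error only.

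In V(D)J recombination RAG cuts between a coding segment and its recombination signal sequence (RSS), a heptamer and a nonamer separated by a spacer. This leaves a coding end and a signal end at each segment. Ku70, a subunit of the Ku heterodimer, binds the ends, and DNA ligase IV (Lig4) seals them in classical non-homologous end joining. Igk V segments lie in both orientations, so that joining to J deletes the DNA between them for some segments and inverts it for others. Normally coding ends join coding ends and signal ends join signal ends, while a coding end joined to a signal end makes a hybrid joint.

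The 7 segments span 211 kb, from 67839793 to 68050454 of chromosome 6 (mm10), and lie 2.67 to 2.88 Mb from Jk1. RefSeq (GRCm38.p6) annotates all of them as V segments. In WT clone A, 5 joined in deletional and 2 (Igkv9-124 and Igkv9-123) in inversional orientation. Among them lie 4 other Igkv segments, and 9 are farther from Jk1. The sequences around the RAG cut are shown because every result below is a position or orientation relative to it. Each is the consensus of deposited reads, 5′ to 3′ along the segment, with the last 24 coding bases in lower case, the heptamer in capitals, the 12-base spacer in lower case and the nonamer in capitals.
Igkv9-129: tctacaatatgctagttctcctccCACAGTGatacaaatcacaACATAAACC
Igkv17-127: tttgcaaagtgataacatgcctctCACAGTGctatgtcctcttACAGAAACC
Igkv11-125: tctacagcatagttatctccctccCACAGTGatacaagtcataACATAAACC
Igkv9-124: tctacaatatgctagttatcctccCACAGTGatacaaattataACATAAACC
Igkv9-123: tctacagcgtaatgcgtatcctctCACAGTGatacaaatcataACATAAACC
Igkv17-121: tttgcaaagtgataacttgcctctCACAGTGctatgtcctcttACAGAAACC
Igkv9-120: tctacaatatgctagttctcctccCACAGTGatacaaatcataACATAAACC
In mm10 these stretches are chr6:67840243-67840294 (plus strand) for Igkv9-129, chr6:67861636-67861687 (plus) for Igkv17-127, chr6:67914029-67914080 (plus) for Igkv11-125 and chr6:67942046-67942097 (minus) for Igkv9-124. They are chr6:67954200-67954251 (minus) for Igkv9-123, chr6:68037295-68037346 (plus) for Igkv17-121 and chr6:68050433-68050484 (plus) for Igkv9-120. The lower-case coding bases are the end of the V exon, reaching up to 2 bases past the end that RefSeq gives, and the signals lie just outside the annotated segments.

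The 7 signals had much in common. The consensus heptamer CACAGTG, searched on the strand of the segment, was present in 7 of 7, and in 72 of 85 other segments with enough reads to show it (84.7%). The nonamer was ACATAAACC in the 5 Igkv9 and Igkv11 segments and ACAGAAACC in the 2 Igkv17 segments, each 1 mismatch from the consensus ACAAAAACC. The nonamer was read only behind an exact heptamer. Among the 72 other segments with that heptamer, ACATAAACC was found in 15, ACAGAAACC in 0 and the exact consensus in 30. A match describes the letters only. Some coding ends were close to identical: over the last 100 coding bases Igkv9-124 and Igkv9-120 shared 98 bases, Igkv9-129 and Igkv9-120 96, and Igkv17-127 and Igkv17-121 97. Reads could therefore be split between such copies by the authors' alignment, and single values of these segments are uncertain to that extent. Igkv11-125 shared at most 76 of 100 bases with any other member.

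Usage is the share of all rows of a library that lay at a segment. Since the members were picked on this share with and without Ku70, the values below are a description and no test was made of them. Together the 7 segments took 2.99% to 4.17% of rows in WT clone A libraries (3.62% ± 0.593, SD, n = 3) and 3.38% to 3.52% in clone B (3.47% ± 0.0788). They took 6.19% to 6.50% in Ku70-/- A1 (6.36% ± 0.159) and 5.26% to 5.38% in B1 (5.30% ± 0.0686). The Ku70-/- libraries thus lay above every WT library of their lineage. The difference averaged 2.29 percentage points over the lineages, and 1.65 when rows within 20 bp of a segment were counted. For Ku70-/- A1 replicate 1, with 200 of 3075 rows, the 95% Clopper-Pearson interval ran from 5.66% to 7.43%.

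**Figure D1:**
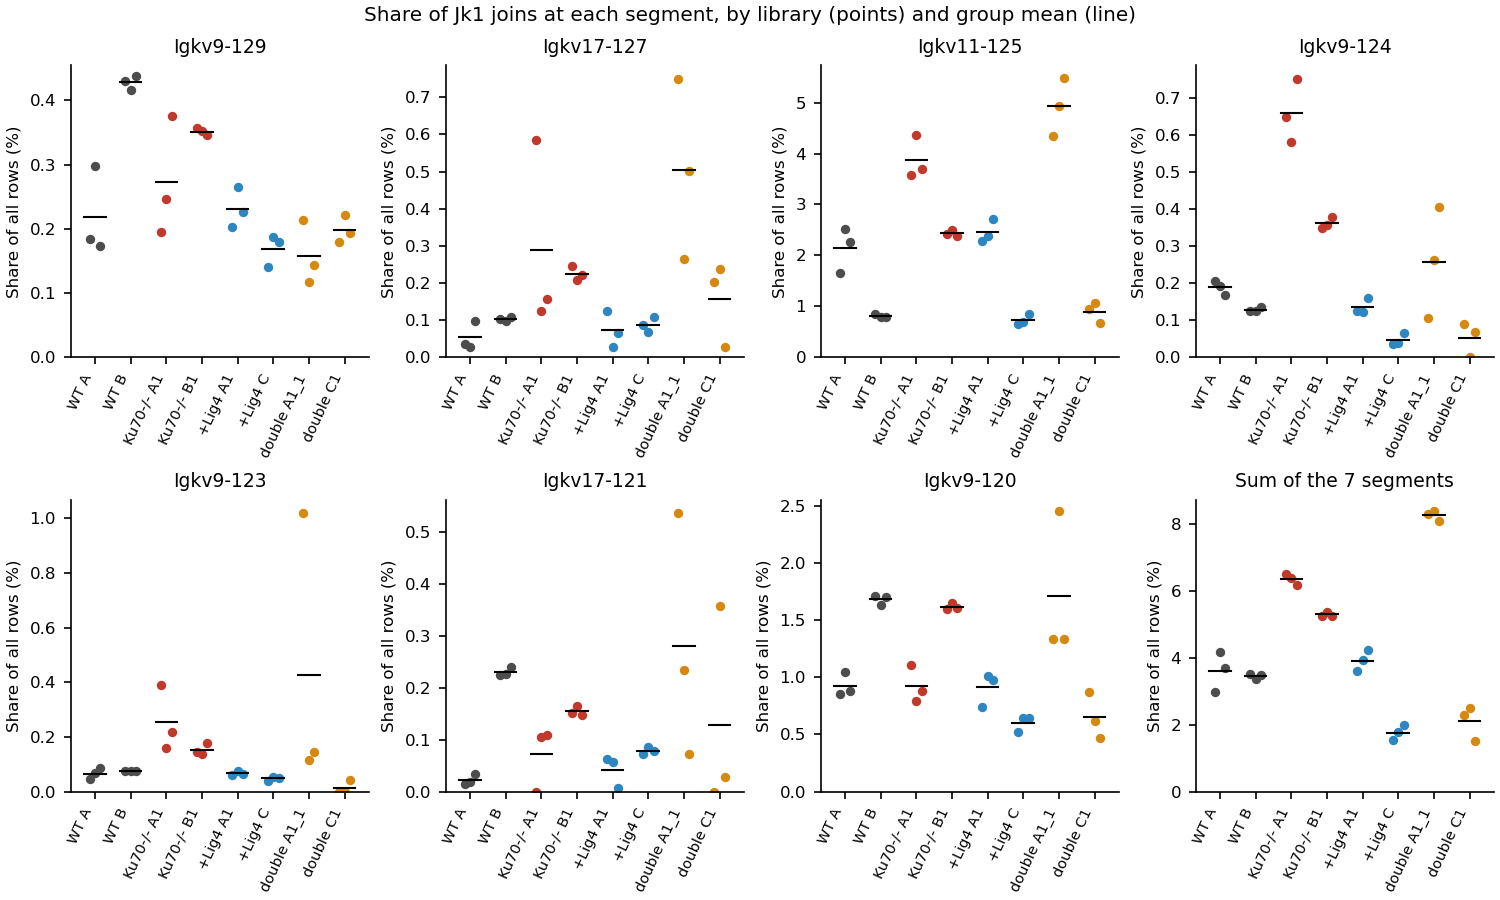
Share of all rows (%) at each of the 7 segments and at their sum in the 8 deep groups; points are libraries, lines are group means, vertical scales differ, "+Lig4" is Lig4-/- +Lig4 and "double" is Lig4-/-Ku70-/-. In the panel of the sum the Ku70-/- points (6.19% to 6.50% in A1, 5.26% to 5.38% in B1) lie above the WT points, and double A1_1 is highest at 8.10% to 8.39%.

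Igkv11-125 was the most used member in every deep group except WT clone B. It took 1.65%, 2.52% and 2.26% of rows in WT clone A and 3.58%, 4.37% and 3.70% in Ku70-/- A1. In lineage B it took 0.853%, 0.800% and 0.798% in WT and 2.42%, 2.51% and 2.37% in Ku70-/-. In both lineages all Ku70-/- libraries were above all WT libraries, also with the 20 bp limit, with each distinct join counted once and with the usual orientation only. Counted by row, the means differed 1.81-fold in A and 2.98-fold in B. Ranked by mean share among the 162 segments, Igkv11-125 stood at 12 in WT A and 3 in Ku70-/- A1, and at 48 in WT B and 7 in Ku70-/- B1.

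Igkv9-124 and Igkv9-123, the inversional members, were also higher without Ku70 in both lineages when every row was counted. Igkv9-124 took 0.206%, 0.194% and 0.168% in WT A and 0.650%, 0.581% and 0.752% in Ku70-/- A1, and 0.128% ± 0.0067 against 0.362% ± 0.016 in WT and Ku70-/- of lineage B. Igkv9-123 took 0.0655% ± 0.0202 in WT A and 0.256% ± 0.12 in A1, and 0.0751% ± 0.000505 and 0.154% ± 0.0223 in lineage B. Both segments are small contributors, and the A1 values rest on 101 rows for Igkv9-124 and 35 for Igkv9-123. The separation depended on the counting. With the usual orientation only, Igkv9-124 took 0.0941% to 0.420% in A1 against 0.168% to 0.206% in WT A, and Igkv9-123 took 0.0235% to 0.265% against 0.0425% to 0.0851%, so both overlapped. With each distinct join counted once, Igkv9-123 was lower in B1 (0.224%) than in WT B (0.248%), with overlap, and Igkv9-124 overlapped in lineage A. With the 20 bp limit both overlapped in lineage A.

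Igkv17-127, a deletional member, took 0.0361%, 0.0288% and 0.0980% in WT A and 0.585%, 0.123% and 0.157% in Ku70-/- A1. The single high A1 library, replicate 1, held 18 of the 35 A1 rows. In lineage B the values were 0.103% ± 0.00583 in WT and 0.225% ± 0.0192 in Ku70-/-. No WT library reached a Ku70-/- library of its lineage, although in A1 the lowest library was close to the highest WT library. Other ways of counting turned this order. With each distinct join counted once, Igkv17-127 took 0.327% in B1 and 0.359% in WT B, and the libraries overlapped in both lineages. With the usual orientation only, it took 0.0221% in A1 and 0.0544% in WT A, while B1 stayed above WT B.

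Counted by row, the other 3 members did not share this pattern. Igkv9-120, the most used member in WT B, took 1.68% ± 0.0406 there and 1.62% ± 0.028 in Ku70-/- B1, and 0.926% ± 0.103 and 0.925% ± 0.162 in WT A and A1. Igkv9-129 was lower in B1 (0.351% ± 0.00558) than in WT B (0.428% ± 0.0113) without overlap, while A1 (0.273% ± 0.0932) and WT A (0.219% ± 0.0687) overlapped. Igkv17-121 was likewise lower in B1 (0.155% ± 0.00906) than in WT B (0.231% ± 0.00879). In lineage A its mean share was the other way round, 0.0718% in A1 and 0.0227% in WT (3.17-fold), but the libraries overlapped. The A1 value rests on 13 rows, and 1 A1 library had 0 of 3075 rows, which allows a share of up to 0.0976%. For Igkv9-120 the order of the means depended on the counting: with each distinct join counted once, the mean difference over the lineages went from -0.03 to 0.29 percentage points. In lineage B Igkv9-120 was then higher in B1 (1.622%) than in WT B (1.115%) without overlap. With the usual orientation only it was so too, at 1.876% and 1.683%. The lineage A libraries overlapped under both countings.

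Counted by row, 4 of 7 members were higher without overlap in both lineages, and 8.85% of the 113 segments measured were. Only 1 of 7, Igkv11-125, remained so with the 20 bp limit (4.42% of all segments), with distinct joins (8.85%) or with the usual orientation only (5.31%). By row in lineage A alone this was 4 of 7 against 14.2%, and in lineage B 4 of 7 against 36.3%. In lineage B 2 of 7 members were lower without overlap, against 37.2% of all segments. The rule used this contrast, so nothing is read from these counts. The median log2 ratio of the mean shares was 1.33 for the members and -0.14 for all 113 segments in lineage A, and 0.94 and -0.06 in lineage B.

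WT and Ku70-/- libraries shared sequencing runs, as read from the read names. In lineage A the second replicates shared a run, and so did the third replicates. Within them the summed share was 6.38% against 4.17% and 6.19% against 3.69%, ratios of 1.53 and 1.68. In lineage B all 6 libraries came from 1 run, and the ratio was 1.53. For Igkv11-125 the ratios within the runs of lineage A were 1.74 and 1.64.

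The Lig4-/-Ku70-/- cells were set beside Lig4-/- +Lig4 cells, in which ligase IV is added back and Ku70 is present. This comparison also crosses a difference in Ku70, so usage is again described without a test. In lineage A the summed share was 8.26% ± 0.154 in Lig4-/-Ku70-/- A1_1 and 3.92% ± 0.313 in Lig4-/- +Lig4 A1. In lineage C it was 2.10% ± 0.523 in C1 and 1.76% ± 0.218 in Lig4-/- +Lig4 C, and the libraries overlapped. With each distinct join counted once, lineage C turned round without overlap, at 1.82% (1.55% to 1.98%) in C1 and 2.56% (2.18% to 2.87%) with Lig4. Counted by row, in lineage A 5 of 7 members were higher without overlap (17.7% of all segments), in lineage C 0 of 7 (12.4%), and in both lineages 0 of 7 (7.96%); with the usual orientation only it was 1 of 7 in both lineages, Igkv9-120 (7.96%). The difference between lineages was not tested.

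Igkv11-125 took 4.34%, 4.94% and 5.49% in A1_1, where it ranked 1 of 162, and 2.28%, 2.37% and 2.72% in Lig4-/- +Lig4 A1. In lineage C the same segment took 0.942%, 1.07% and 0.678% in C1 and 0.645%, 0.699% and 0.852% with Lig4, and these overlapped. Igkv9-120 took 1.71% ± 0.646 in A1_1 and 0.911% ± 0.146 in Lig4-/- +Lig4 A1. The lineage C means were 0.653% ± 0.205 and 0.601% ± 0.0688. The smaller members moved widely between libraries: Igkv9-123 took 1.02%, 0.117% and 0.143% in A1_1, where replicate 1 holds 19 of 29 rows, and it had 3 rows over the 3 C1 libraries. The compared groups shared no run in either lineage, which means that genotype and run cannot be told apart in this comparison.

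The 4 clones with intact or restored joining also differed from each other. Igkv11-125 took 2.14% ± 0.447 of rows in WT A and 2.46% ± 0.232 in Lig4-/- +Lig4 A1, but 0.817% ± 0.0308 in WT B and 0.732% ± 0.107 in Lig4-/- +Lig4 C. Igkv17-121 ran the other way in WT, at 0.0227% ± 0.00999 in A and 0.231% ± 0.00879 in B. Each lineage is 1 clone per genotype, and this difference between lineages was not tested. WT A was sequenced on a MiSeq and WT B on a NextSeq, per the labels, so instrument and lineage cannot be told apart there.

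The 5 other segments whose share was most like the members' summed share, over the 8 deep group means and among 106 segments, were Igkv11-106, Igkv14-126, Igkv1-132, Igkv14-130 and Igkv8-23-1. Their Pearson correlations on the log2 scale were 0.93, 0.80, 0.73, 0.72 and 0.72. Libraries and depth are shared between these values, and the groups of one lineage are related. Igkv14-126 lies between 2 of the members. Igkv8-23-1 lies near the J segments, and it took 0.174% of rows in WT A and 0.729% in Ku70-/- A1. Igkv11-106, the closest match, took 0.668% and 1.11% in the same groups.

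The structure of a join can be read from the row itself. A join with no lost or added bases leaves the last coding base of the V segment beside the first base of Jk1. Lost bases, inserted bases and microhomology (bases that could come from either end) are the signs by which joining pathways are told apart. The most frequent join of each member in WT, ranked by its mean share over the 6 libraries, is shown to give the reference shape: V on the left, Jk1 on the right, 20 bases of each, inserted bases in capitals.
Igkv9-129 in WT: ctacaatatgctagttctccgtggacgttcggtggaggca
Igkv17-127 in WT: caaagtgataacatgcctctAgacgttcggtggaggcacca
Igkv11-125 in WT: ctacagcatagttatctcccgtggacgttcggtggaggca
Igkv9-124 in WT: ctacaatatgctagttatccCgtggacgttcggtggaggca
Igkv9-123 in WT: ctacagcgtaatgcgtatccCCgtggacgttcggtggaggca
Igkv17-121 in WT: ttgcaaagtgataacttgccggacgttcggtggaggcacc
Igkv9-120 in WT: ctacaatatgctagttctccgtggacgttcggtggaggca
In these joins the V end lacked its last 3 coding bases in 6 of the members and none in Igkv17-127. Jk1 was complete in 5 and lacked 3 bases with Igkv17-127 and 2 with Igkv17-121. The Igkv11-125 join made up 1126 of 10555 rows of that segment and was seen in 6 of 6 libraries. Support was thin for Igkv17-121 (16 of 2088 rows, 4 of 6 libraries) and Igkv17-127 (26 of 1002 rows, 5 of 6 libraries). The ranking gives each library the same weight, and WT A libraries held only 7, 10 and 18 Igkv17-121 rows. In 1 WT B library, joins of Igkv17-121 at other positions than the join shown numbered 65 rows. These 2 joins therefore show a shape and not a preferred join.

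The same rule in Ku70-/- libraries gave joins cut back further, and 3 of the 7 were in the opposite orientation. Capitals mark a base of microhomology.
Igkv9-129 in Ku70-/-: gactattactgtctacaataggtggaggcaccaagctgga
Igkv17-127 in Ku70-/-: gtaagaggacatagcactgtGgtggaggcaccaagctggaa
Igkv11-125 in Ku70-/-: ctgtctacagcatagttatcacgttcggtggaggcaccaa
Igkv9-124 in Ku70-/-: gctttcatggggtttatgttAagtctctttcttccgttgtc
Igkv9-123 in Ku70-/-: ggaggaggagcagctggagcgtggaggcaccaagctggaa
Igkv17-121 in Ku70-/-: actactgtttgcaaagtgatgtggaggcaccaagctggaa
Igkv9-120 in Ku70-/-: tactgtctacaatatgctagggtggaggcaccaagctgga
The Igkv11-125 join lost 7 coding bases and 4 bases of Jk1, was seen in 6 of 6 libraries and made up 89 of 4757 rows. The Igkv9-120 join lost 9 and 10 bases and was seen in 4 of 6 libraries with 31 of 2904 rows. The other 5 rest on 4 to 16 rows in 1 or 2 libraries each, so they show a shape and not a preferred join. The Igkv17-127 sequence is the reverse complement of its RSS up to the first base of the heptamer, followed by Jk1, the arrangement of a hybrid joint with a complete signal end.

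Orientation was close to uniform in WT. Of member joins, 0.0946% ± 0.164 (clone A) and 0.433% ± 0.0821 (clone B) had the segment in the orientation opposite to the usual one, and the Lig4-/- +Lig4 values were 1.78% ± 0.6 (A1) and 0.497% ± 0.0885 (C). In Ku70-/- this share was 25.5%, 15.7% and 16.7% in A1 and 22.1%, 22.7% and 22.5% in B1. In Lig4-/-Ku70-/- it was 36.1%, 12.5% and 14.5% in A1_1 and 10.8%, 33.3% and 15.6% in C1. Every library of these Ku70-/- and Lig4-/-Ku70-/- groups lay above every WT and Lig4-/- +Lig4 library. At the other Vk segments the opposite share averaged 0.297% and 0.282% in WT A and B, and 31.1% and 30.4% in Ku70-/- A1 and B1. In Lig4-/-Ku70-/- it averaged 37.7% (A1_1) and 31.2% (C1) there. Pooled over the 7 segments, the members were lower than the other segments in 3 of 3 libraries of each of these 4 groups without Ku70. In C1 the difference ranged from -21.0 to -0.11 points. Igkv11-125 and Igkv9-120 gave most of the member rows. Single members went both ways. In A1 Igkv17-127 (91.4%), Igkv9-124 (73.3%), Igkv9-123 (60.0%) and Igkv17-121 (46.2%) lay above the other segments, on 13 to 101 rows each. Igkv11-125 (4.21%), Igkv9-120 (8.89%) and Igkv9-129 (9.09%) lay below. In B1 only Igkv9-123 (36.0%) and Igkv17-127 (34.6%) lay above. In A1_1 only Igkv11-125 and Igkv9-120 lay below. No test was made of orientation.

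Opposite-orientation joins without Ku70 mostly started on the signal side of the cut. In Ku70-/- libraries the joined sequence began at a median of base 15 counted from the first base of the heptamer (n = 2209 rows), and 78.5% began within the 28 bases of the RSS. In Lig4-/-Ku70-/- the median was base 14 and the share 74.8% (n = 218). In WT, the 137 such rows, 133 of them from clone B, had a median of base 1, the exact signal end. Of these WT rows, 53 (38.7%) began before the heptamer, on the coding side, including 12 of 20 at Igkv9-129 and 23 of 40 at Igkv9-120, against 2.67% in Ku70-/-. With both Ku70-/- clones pooled, the joins of Igkv9-124 had the farthest median, base 23.5, with 67.4% within the RSS (n = 258). That held in B1 alone (base 21, n = 184). In A1, Igkv17-121 (base 48, n = 6) and Igkv9-123 (base 33, n = 21) lay farther out than Igkv9-124 (base 27, n = 74).

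**Figure D2:**
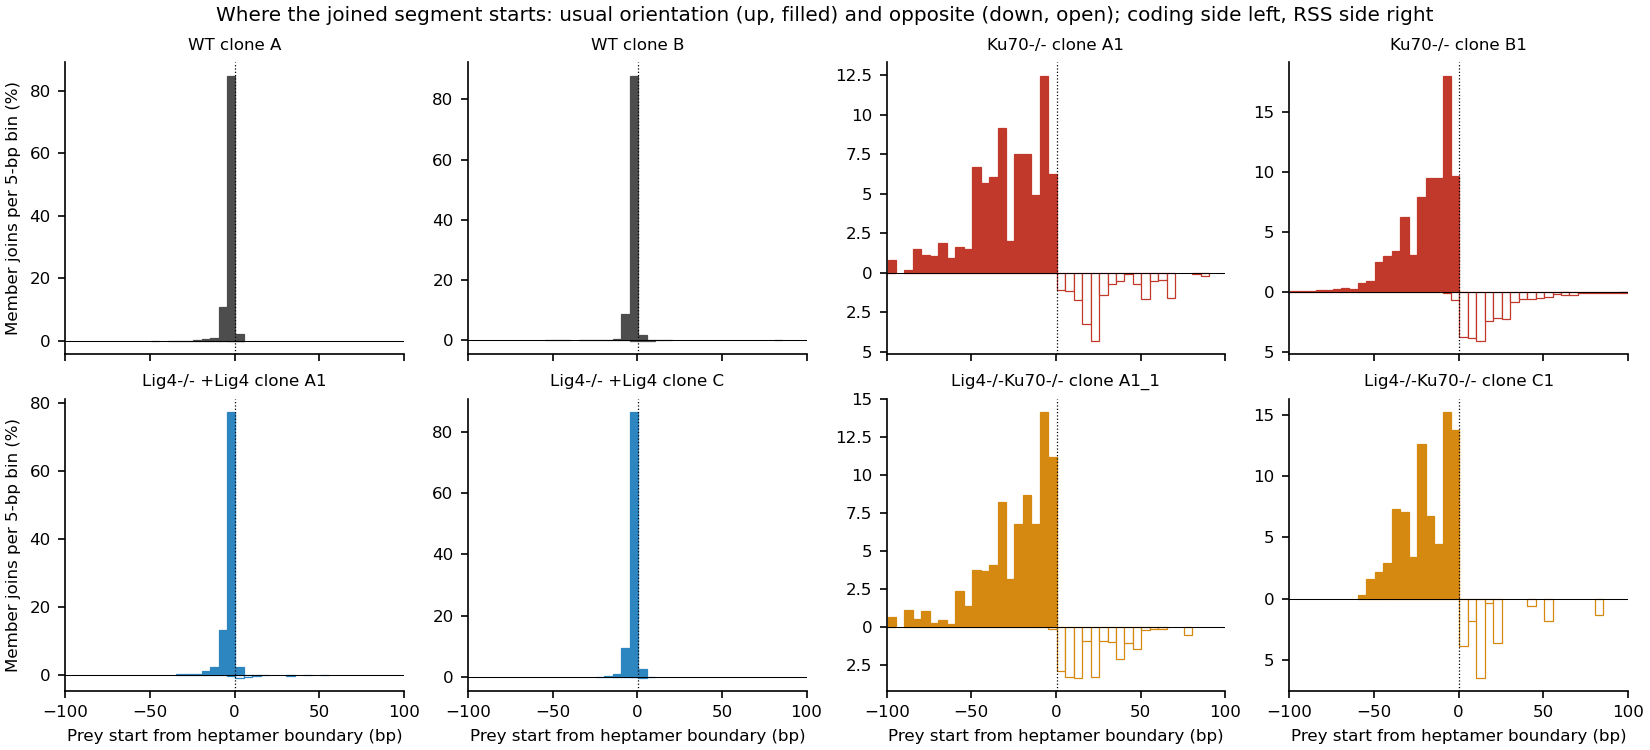
Start of the joined segment relative to the heptamer boundary (bp, coding side left, RSS side right) as a percent of member joins per 5-bp bin, mean over 3 libraries; filled bars up are the usual orientation, open bars down the opposite one, and vertical scales differ. In WT 84.8% (A) and 87.9% (B) of joins lie in the bar just left of the boundary, and in Ku70-/- 6.25% (A1) and 9.72% (B1).

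By segment, the opposite share differed in both Ku70-/- clones, over a wider range in A1. In B1 the opposite share ran from 18.6% for Igkv9-120 (n = 2769 rows) to 36.0% for Igkv9-123 (n = 264), with Igkv11-125 at 22.4% ± 2.05. The B1 libraries of these 2 end members did not overlap (17.5% to 20.5% against 31.9% to 42.2%). In A1 it was 4.21% for Igkv11-125 (25 of 594 rows) and 8.89% for Igkv9-120 (12 of 135), but 73.3% for Igkv9-124 (74 of 101), 60.0% for Igkv9-123 (21 of 35) and 91.4% for Igkv17-127 (32 of 35). The high values in A1 rest on few joins. The 35 Igkv17-127 rows were 10 distinct joins, of which 8 were in the opposite orientation, and the 101 Igkv9-124 rows were 38 distinct joins, of which 22 were. With distinct joins the Igkv11-125 values were 6.18% in A1 (16 of 259) and 31.3% in B1 (631 of 2014).

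In A1_1 the share was 8.12% for Igkv11-125 (39 of 480) and 8.48% for Igkv9-120 (14 of 165), but 65.9% for Igkv17-127 (29 of 44) and 72.4% for Igkv9-123 (21 of 29). In C1 Igkv11-125 was at 19.5% (30 of 154), of which a single join in replicate 2 gave 17 rows. Igkv17-121 was at 91.3% (21 of 23) in C1, where 13 of 23 rows were 1 join.

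**Figure D3:**
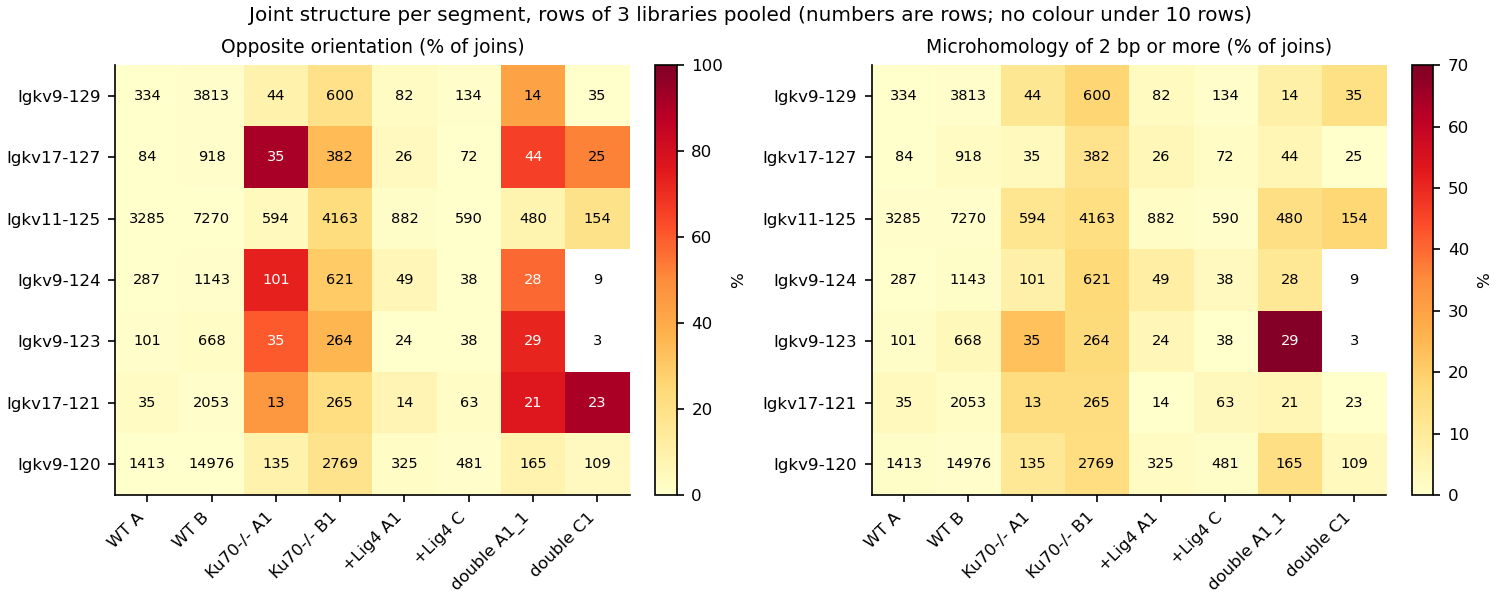
Share of joins in the opposite orientation (left, %) and with microhomology of at least 2 bp (right, %) for each segment in the 8 deep groups, rows of 3 libraries pooled; numbers are rows, cells under 10 rows have no colour, "+Lig4" is Lig4-/- +Lig4 and "double" is Lig4-/-Ku70-/-. Dark cells on the left, such as Igkv17-127 in Ku70-/- A1 (91.4%, 35 rows), rest on few rows, while Ku70-/- B1 runs from 18.6% to 36.0%.

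The question put to the structure was how member joins formed without both Ku70 and Lig4 compare with joins made when both are present. It was tested between Lig4-/-Ku70-/- and Lig4-/- +Lig4 libraries, which do not enter the WT and Ku70-/- contrast. Whether usage in the Lig4-/-Ku70-/- libraries also entered the choice of the members is not stated. The tests were two-sided exact permutation tests within lineages (400 relabellings, smallest p 0.005) with Benjamini-Hochberg adjustment over 7 tests. Member joins had more microhomology, fewer insertions and more end loss without both proteins, and in each lineage the groups did not overlap on any of the 3 measures. Sequencing run cannot be told apart from genotype here.

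Microhomology of at least 2 bp was found in 17.4%, 12.5% and 17.1% of member joins in Lig4-/-Ku70-/- A1_1 and in 6.86%, 8.16% and 14.7% in C1. In Lig4-/- +Lig4 it was found in 1.72%, 2.88% and 1.38% (A1) and in 0.926%, 0.811% and 0.791% (C). The difference averaged 11.4 percentage points over the lineages (exact permutation p = 0.005, adjusted 0.0117). It was 13.7 points in lineage A and 9.06 in lineage C.

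Inserted bases were found in 2.11% ± 1.33 (A1_1) and 5.79% ± 1.73 (C1) of member joins in Lig4-/-Ku70-/- and in 50.9% ± 5.9 (A1) and 50.0% ± 1.17 (C) in Lig4-/- +Lig4. The difference averaged -46.5 points (exact permutation p = 0.005, adjusted 0.0117). In the Lig4-/- +Lig4 libraries the inserted stretches had a median length of 2 bases and a G+C content of 62.0% (A1) and 63.9% (C). Terminal deoxynucleotidyl transferase is the enzyme known for adding untemplated bases to coding ends. Whether the inserted bases here were untemplated was not tested. In all, 19 and 21 rows with insertions were found in A1_1 and C1.

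End loss of more than 10 bp at the V segment was found in 62.2% ± 4.58 (A1_1) and 61.1% ± 11.4 (C1) of member joins in Lig4-/-Ku70-/-. In Lig4-/- +Lig4 it was found in 3.80% ± 1.59 (A1) and 0.411% ± 0.165 (C). The loss was counted from the most frequent join of the segment in WT clone A, which itself lies 3 bp short of the heptamer in 5 of 7 members. In opposite-orientation joins it was counted from the same position toward the RSS. Shares of end loss over all joins thus mix loss on the coding side and on the signal side. The difference averaged 59.5 points (exact permutation p = 0.005, adjusted 0.0117). Of the usual-orientation joins, the median loss was 17.7 bp ± 4.93 in A1_1 and 15.0 bp ± 7.94 in C1, against 0 bp in both Lig4-/- +Lig4 groups. The Jk1 end was cut back too, with a median of 18.3 bp ± 1.53 in A1_1 and 16.0 bp in C1 against 1 bp and 0 bp.

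**Figure D4:**
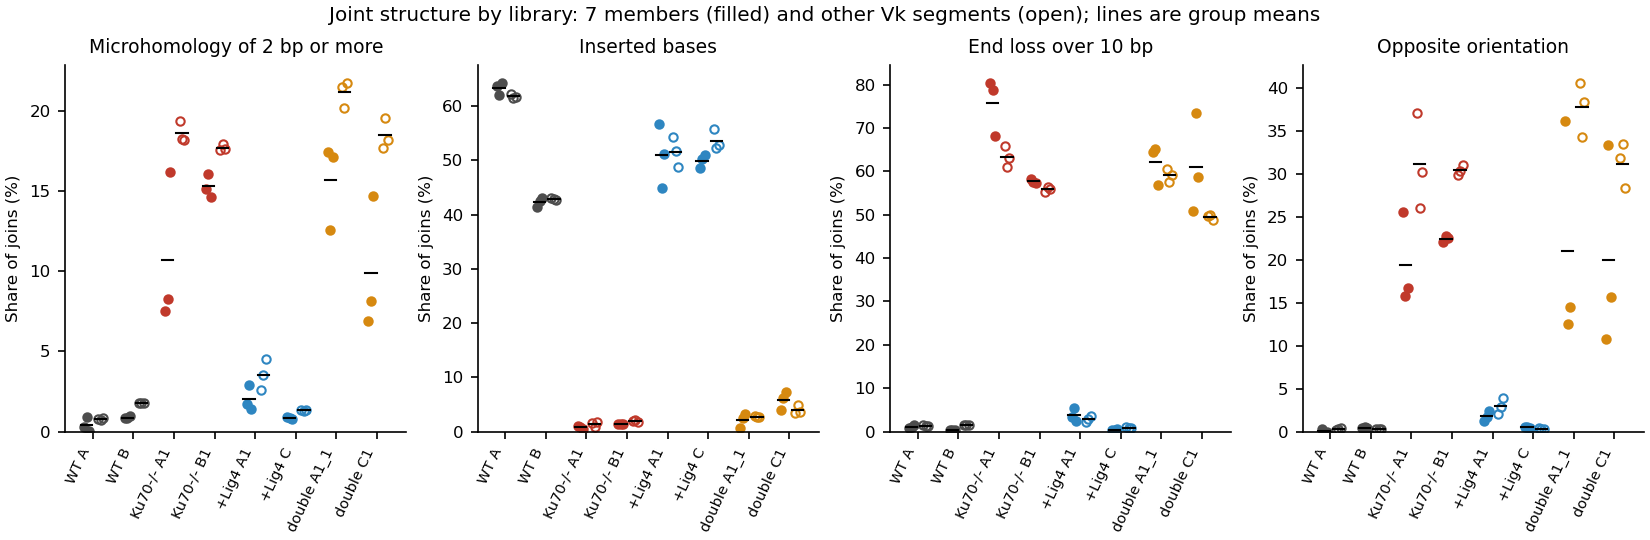
Share of joins (%) with microhomology of at least 2 bp, with inserted bases, with end loss over 10 bp and in the opposite orientation in the 8 deep groups; filled points are libraries over the 7 members, open points the same libraries over the other Vk segments, lines are group means, "+Lig4" is Lig4-/- +Lig4 and "double" is Lig4-/-Ku70-/-. In the double groups the filled points of microhomology (12.5% to 17.4% in A1_1, 6.86% to 14.7% in C1) lie below the open points.

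Joins of the other Vk segments differed between the same groups in the same directions, with inserted bases in 2.73% ± 0.106 (A1_1) and 3.94% ± 0.841 (C1) against 51.6% ± 2.73 (A1) and 53.6% ± 1.82 (C). To ask where the 7 differ, the members were set against the other segments within each library, with exact sign-flip tests over 6 libraries (64 sign patterns, smallest p 0.0312). In Lig4-/-Ku70-/- the microhomology share was lower at the members in 6 of 6 libraries: 15.7% ± 2.73 against 21.1% ± 0.863 in A1_1 and 9.90% ± 4.19 against 18.5% ± 0.971 in C1. The difference averaged -7.00 points (exact sign-flip permutation p = 0.0312, adjusted 0.0437). This call was lost when microhomology was set at 1 bp or more (-4.25 points, exact p = 0.312) or at 4 bp or more (-1.42 points, exact p = 0.344). It was also lost with the usual orientation only (-6.08 points, exact p = 0.0625). The segments were not alike in this share. Pooled C1 rows gave 17.5% at Igkv11-125 (n = 154), 14.3% at Igkv9-129 (n = 35) and 2.75% at Igkv9-120 (n = 109). The remaining members had 0% in C1, on 3 to 25 rows each. In A1_1 Igkv9-123 was at 69.0% (n = 29) and the other members at 4.55% to 14.6%.

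In Lig4-/- +Lig4 the share was again lower at the members in 6 of 6 libraries, by 1.54 points in A1 (2.00% ± 0.788 against 3.53% ± 0.944) and by 0.47 points in C (0.842% ± 0.073 against 1.32% ± 0.0215). The exact sign-flip permutation p was 0.0312 (adjusted 0.0437) for an average of -1.01 points. This call was lost with each distinct join counted once (-0.33 points, exact p = 0.594) and with microhomology set at 1 bp or more (-1.15 points, exact p = 0.156) or at 4 bp or more (-0.0204 points, exact p = 0.906).

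Long end loss did not differ past the threshold between members and other segments. In Lig4-/-Ku70-/- it averaged 7.31 points more at the members, higher in 5 of 6 libraries (exact sign-flip permutation p = 0.0938, adjusted 0.109). The usual-orientation joins alone gave 15.4 points and the 20 bp window 10.1 points (exact p = 0.0312 each). Distinct joins gave 4.34 points (exact p = 0.438), and leaving out the second replicates gave 3.21 points (exact p = 0.375). In Lig4-/- +Lig4 the difference averaged 0.24 points, higher in 2 of 6 libraries (exact sign-flip permutation p = 0.75, adjusted 0.75).

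The WT and Ku70-/- joins are described without a test, since the members were picked from this contrast. Microhomology of at least 2 bp was found in 0.403% ± 0.425 (WT A) and 0.871% ± 0.0656 (WT B) of member joins and in 10.7% ± 4.81 (Ku70-/- A1) and 15.3% ± 0.705 (B1). Inserted bases were found in 63.4% ± 1.17 and 42.4% ± 0.814 in WT and in 0.778% ± 0.251 and 1.39% ± 0.0787 in Ku70-/-. End loss over 10 bp was found in 1.14% ± 0.339 and 0.402% ± 0.0123 in WT and in 75.8% ± 6.71 and 57.7% ± 0.44 in Ku70-/-. No WT library overlapped a Ku70-/- library of its lineage on these measures. Direct joins, with neither microhomology of any length nor insertion, made up 34.0% ± 0.782 and 49.2% ± 0.494 in WT and 61.8% ± 8.1 and 55.3% ± 1.32 in Ku70-/-. At the other Vk segments microhomology of at least 2 bp averaged 0.79% (WT A), 1.77% (WT B), 18.6% (A1) and 17.7% (B1). End loss over 10 bp averaged 1.29%, 1.51%, 63.3% and 55.9% there.

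Insertions were more frequent in WT A than in WT B at most members. In 5 of 7 segments every WT A library lay above every WT B library. Igkv11-125 joins carried inserted bases in 61.0% of 3285 rows in WT A and 39.3% of 7270 rows in WT B, and Igkv9-124 joins, with the widest gap, in 75.6% of 287 and 41.3% of 1143. Igkv17-121 joins carried them in 60.0% of 35 and 58.4% of 2053, and the libraries of Igkv17-121 and Igkv9-123 overlapped. The inserted stretches had a median of 2 bases in both, with a G+C content of 63.2% in A and 61.9% in B. The other Vk segments gave 61.9% ± 0.434 and 42.9% ± 0.179, so the gap between clones was of like size there.

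In Ku70-/- B1, the deepest group without Ku70, microhomology of at least 2 bp ran from 13.1% (Igkv17-127, n = 382) to 17.8% (Igkv9-129, n = 600). The Igkv17 segments had the shortest losses, with a median in usual orientation of 7 bp for Igkv17-121 (n = 265) and 10 bp for Igkv17-127, against 11 bp for Igkv11-125 and 14 to 19 bp for the Igkv9 segments. These losses start from the most frequent WT join, which lies 3 bp before the heptamer for Igkv17-121 and at it for Igkv17-127 and Igkv9-123. Counted from the heptamer the median was 10 bp for both Igkv17 segments, 14 bp for Igkv11-125 and 17 to 19 bp for the Igkv9 segments. On that scale, in both orientations, loss over 10 bp was found in 49.8% of Igkv17-121, 50.5% of Igkv17-127 and 65.2% of Igkv9-123 joins. Counted from the WT join, in A1 Igkv11-125 lost a median of 27 bp and Igkv9-120 of 30 bp, more than in B1. The longest microhomology at a member was 9 bp in B1 (Igkv9-129) and 7 bp in A1 (Igkv9-124).

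A1 libraries differed among themselves. For Igkv11-125 the microhomology share was 7.27% (n = 110), 8.06% (n = 248) and 18.2% (n = 236), and the median loss 17.5, 33 and 14 bp. In A1_1, 69.0% of the 29 Igkv9-123 joins had microhomology, of which 9 rows in replicate 1 were 1 join.

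The Lig4-/- libraries held few joins of any kind. Member rows numbered 13 of 146 in A1, 3 of 114 in the second A1 set, 6 of 165 in B1 and 0 of 65 in C, the last of which allows a share of up to 4.62%. All 13 rows in A1 were at Igkv9-123 in the opposite orientation with 2 bp of microhomology. Of these, 12 were the same join, 6 rows in replicate 1 and 6 in replicate 2. Of the 22 Lig4-/- member rows none had inserted bases. With so few rows, no level can be set for single segments.

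Lig4-/-Ku70-/- +Ku70 libraries, which again contain Ku70 but lack Lig4, held 6 member rows of 181 in A1_1, all at Igkv11-125, and 36 of 1637 in C1. In C1, 19 of the 36 rows were at Igkv9-120, 8 each at Igkv17-127 and Igkv9-124, and 1 at Igkv9-129. The 8 Igkv17-127 rows were a single join, as were the 8 Igkv9-124 rows. A recurrent Igkv9-120 join in the opposite orientation, with 2 bp of microhomology, appeared in 2 rows of replicate 1 and 6 rows of replicate 2.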

How the data were processed

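LAM-HTGTS junction lists for the Jk1 coding end were analysed in 42 libraries; per the submitters' processing notes, reads were aligned with Bowtie2 to mm10. The deposited lists carry other values per row (positions, strand and read offsets) and no normalised unit; the authors had drawn 167151, 377068 or 600000 raw reads per library, per the labels. The 90 lists of other break types were not used. The members, lists and tests were chosen with earlier results of these data known.

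Each row was assigned to the nearest RefSeq Igkv segment (GRCm38.p6, the assembly of mm10) within 100 bp. Microhomology or insertion was the overlap or gap of bait and prey on the read. The usual orientation and the end were the most frequent in WT clone A (segments with at least 20 rows). RSS sequences came from read consensus (at least 10 reads a base), with the heptamer searched from 5 bases before to 8 after the RefSeq end. Named segments were the 7 members and the 5 most alike by correlation of log2(percent + 0.01). Scripts (Python 3.11.15, pandas 2.3.3, NumPy 2.4.6) were tested on simulated data. Of 27 replicate pairs deep enough to test, 0 agreed within sampling noise by chi-square, and 0 read names were repeated, so all libraries were counted. Same-numbered libraries did not deviate together in every pair, so numbers were not used as pairs. Alternatives are given in the closing section.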

Additional observations from a re-analysis of the deposited data

How the results depend on the processing

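The comparisons of member joins between Lig4-/-Ku70-/- and Lig4-/- +Lig4 kept their direction under every alternative, and the call under each one that keeps all libraries: the 20 bp window, distinct joins, the usual orientation, other microhomology and end loss limits, RefSeq or (chosen after seeing the data) heptamer ends, and the replicate block (exact sign-flip p = 0.0312). Without replicate 1, 2 or 3 the smallest p possible is 0.0556, so the threshold cannot be reached; the differences ranged from 9.66 to 12.8 points for microhomology, from -48.1 to -44.6 for insertions and from 56.1 to 61.4 for long end loss. Members against other segments, leaving out a replicate (smallest p 0.125), ranged from -8.46 to -5.75 points for microhomology in Lig4-/-Ku70-/-, from -1.23 to -0.60 in Lig4-/- +Lig4. For microhomology in Lig4-/-Ku70-/- the values were -6.08 (usual orientation), -4.25 (1 bp) and -1.42 (4 bp); in Lig4-/- +Lig4 they were -0.33 (distinct joins), -1.15 (1 bp) and -0.0204 (4 bp). The calls were lost under each of these. Long end loss in Lig4-/-Ku70-/- passed the threshold with the 20 bp window (10.1) and the usual orientation (15.4); it was 4.34 with distinct joins and 3.21 to 9.64 leaving out a replicate. In Lig4-/- +Lig4 it turned to -0.0237 with RefSeq ends, and ranged from -0.18 to 0.72 leaving out a replicate. Weighting segments equally, chosen after seeing the data and run for both measures in Lig4-/-Ku70-/- only, changed neither call. Causes were not tested.

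The summed share, Ku70-/- minus WT, averaged 2.29 points and moved to 1.65 (20 bp window), 1.97 (distinct joins) and 3.06 (usual orientation). For Lig4-/-Ku70-/- minus Lig4-/- +Lig4 it was 2.34, and 1.82, 1.65 and 3.41. Mean differences of single members turned sign in the first contrast for Igkv9-129 (0.0570 with the usual orientation, -0.0446 to 0.0115 leaving out a replicate), Igkv17-121 (-0.0263 to 0.0022) and Igkv9-120 (0.29 with distinct joins, 0.24 with the usual orientation, -0.0817 to 0.0108 leaving out a replicate), and for Igkv9-124 (-0.0061, 20 bp window) and Igkv17-121 (-0.0288 with distinct joins, -0.0184 with the usual orientation) in the other. The replicate block leaves mean differences as they are.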
